A study of Mus musculus with 2 samples.

Results

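Genes of central carbon metabolism were compared between 1 array of nondepleting (ND) αCD4 (clone YTS177) and 1 array of isotype control Ab (clone 2A3), both hybridized with RNA of live CD3+CD4+ T cells sorted from the PLN (pancreatic lymph nodes) 48 hours after treatment. The set was chosen by name and not by its values, though with earlier results of these data known. It holds 51 genes of glucose transport, glycolysis, lactate handling, the pentose phosphate pathway, pyruvate dehydrogenase, the TCA cycle and the HIF response, out of 19938 genes named on the array. Of these, 47 were represented by a probe set with a single gene symbol. The other 4, *Gapdh*, *Eno1*, *Gpi1* and *G6pdx*, had none and were not analysed here. Both groups are BDC mice aged 8 weeks on the NOD background, which carry transgenes for 1 rearranged T cell receptor of a diabetogenic clone and so have T cells that are mostly of 1 specificity. The labels spell the line BDC2.4, give 1 mg of antibody, and put age and antibody under each other's headings. The methods state that PLN of 3 mice were pooled for the sort. The study asked with this comparison which early transcripts differ when the CD4 coreceptor is bound by a nondepleting antibody.

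With 1 array per condition, no difference was tested and none has an error or a p value. How precise the values are is limited by the number of arrays. Values are log2 array signals, and a log2 ratio is ND αCD4 minus isotype control, so that a value below 0 is a lower signal after ND αCD4. Background was the 95th percentile over 1210 probe sets of odorant and pheromone receptors (7.64 for isotype control and 7.56 for ND αCD4), and 13222 genes were above it in 1 or both arrays. All 47 measured genes of the set passed, 46 of them in both arrays. Signals of different genes depend on their probes and are not compared with each other. The sorted cells carried the defining T cell markers, with *Cd4* at 13.38 and 13.48 and *Cd3e* at 13.76 and 13.78. Here and throughout, the first value of a pair is from isotype control and the second is from ND αCD4.

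Glycolysis splits glucose into pyruvate in the cytosol, and pyruvate is either reduced to lactate and exported or taken into mitochondria, where pyruvate dehydrogenase makes the acetyl-CoA that enters the TCA cycle. The pentose phosphate pathway branches off glucose-6-phosphate and makes NADPH and ribose for nucleotides. T cells are known to raise glycolysis and glucose uptake strongly when they are activated, under the control of PI3K, mTOR, MYC and HIF-1α, and to rely more on mitochondrial oxidation when they are quiescent.

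Most of the set had a slightly lower signal after ND αCD4. Of the 47 genes, 39 had a log2 ratio below 0 and 8 above 0, with a median of -0.12. Over all 13222 genes above background, 52.7% were below 0 and the median was -0.010. Only *Tpi1* and *Slc16a1* were at least 1.5-fold lower, against 1.01% of all genes above background (133 genes), and none was at least 1.5-fold higher, against 0.212% of all genes (28 genes). Within 0.1 of 0 lay 18 of the 47, a share of 38.3%, beside 56.4% of all genes. In a sorted pool, fewer cells of a kind and less RNA per cell cannot be told apart. At the low end, 7 of the 47 lay below the 5th percentile of all genes (-0.28). They were *Tpi1*, *Slc16a1*, *Pgk1*, *Pgam1*, *Idh3a*, *Fh1* and *Hk2*, the last with a signal below background after ND αCD4. With values floored at background, the log2 ratio of *Hk2* was -0.17, which is not below -0.28. At the high end, *Idh1* alone lay above the 95th percentile (0.21). These positions describe 2 arrays and carry no error.

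**Figure D1:**
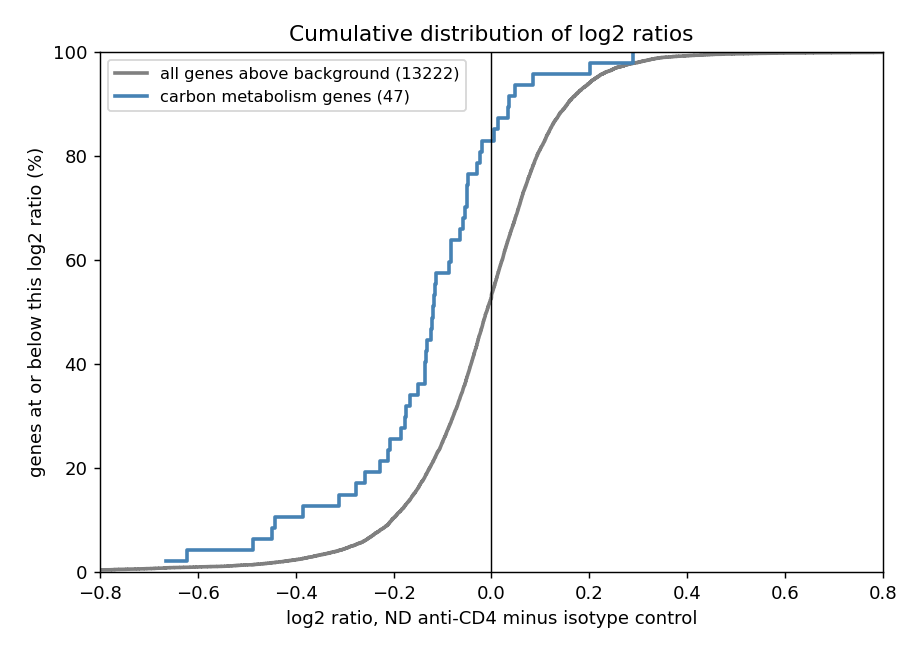
Cumulative share of genes (percent, vertical axis) at or below each log2 ratio (horizontal axis, ND αCD4 minus isotype control) for the 47 genes of carbon metabolism (blue) and for all 13222 genes above background (gray), with 0 as a vertical line. The blue curve lies to the left of the gray one over most of its range, with medians of -0.12 and -0.010. The horizontal axis is limited to ±0.8, and some genes of the gray curve lie outside it.

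The step that interconverts the triose phosphates had the lowest log2 ratio of the set. *Tpi1*, which encodes triosephosphate isomerase, measured 10.95 under isotype control and 10.28 after ND αCD4. This is a 1.59-fold lower level and the 106th lowest log2 ratio of all 13222 genes. *Slc16a1*, which encodes MCT1, a proton-linked carrier of lactate and pyruvate, went from 10.49 to 9.87, a 1.54-fold lower level. *Pgk1*, the first ATP-forming enzyme of the pathway, went from 11.99 to 11.51 and was 1.40-fold lower. *Pgam1*, which moves the phosphate of phosphoglycerate, went from 11.24 to 10.79 and was 1.36-fold lower. *Pgk1* and *Pgam1* each have 3 probe sets, whose log2 ratios were all close (-0.49 for *Pgk1* and -0.45 for *Pgam1* in each). Near-identical copies in the genome may share probes, so these probe sets are not separate measurements.

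The reference promoters of the lowest genes that the RefSeq table holds are shown, since glycolytic genes are known targets of HIF-1α and MYC. These genes were picked for their low log2 ratios, and a part of HIF-1α or MYC in them was not tested. Each line gives the 250 bases upstream of the annotated start in GRCm38.p6, read 5′ to 3′ on the strand of the gene, from the C57BL/6J reference and not from NOD mice. Capitals mark ACGTG and GCGTG, the core of the HIF response element, and CACGTG, the E-box of MYC and MAX, on either strand. CACGTG contains ACGTG, so a single E-box is a match to both motifs. The *Tpi1* window is chr6:124814159-124814408 on the minus strand, that of *Slc16a1* is chr3:104638414-104638663 on the plus strand, and that of *Pgk1* is chrX:106186850-106187099 on the plus strand. The *Pgam1* window is chr19:41911621-41911870 on the plus strand, and that of *Fh1* is chr1:175625636-175625885 on the minus strand.
Tpi1: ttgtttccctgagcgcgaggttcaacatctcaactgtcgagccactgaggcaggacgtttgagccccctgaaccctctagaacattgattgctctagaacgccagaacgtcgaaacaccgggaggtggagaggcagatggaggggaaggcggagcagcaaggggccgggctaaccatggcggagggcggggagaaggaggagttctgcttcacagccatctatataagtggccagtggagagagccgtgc
Slc16a1: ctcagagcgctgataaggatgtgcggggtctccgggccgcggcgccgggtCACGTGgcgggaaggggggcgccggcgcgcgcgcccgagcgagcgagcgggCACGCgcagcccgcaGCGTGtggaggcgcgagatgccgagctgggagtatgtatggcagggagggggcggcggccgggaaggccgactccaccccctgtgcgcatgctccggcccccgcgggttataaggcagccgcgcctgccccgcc
Pgk1: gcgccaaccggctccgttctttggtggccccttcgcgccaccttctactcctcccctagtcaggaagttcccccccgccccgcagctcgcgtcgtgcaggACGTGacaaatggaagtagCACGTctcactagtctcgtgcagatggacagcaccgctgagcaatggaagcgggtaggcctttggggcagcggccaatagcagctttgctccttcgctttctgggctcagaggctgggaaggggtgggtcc
Pgam1: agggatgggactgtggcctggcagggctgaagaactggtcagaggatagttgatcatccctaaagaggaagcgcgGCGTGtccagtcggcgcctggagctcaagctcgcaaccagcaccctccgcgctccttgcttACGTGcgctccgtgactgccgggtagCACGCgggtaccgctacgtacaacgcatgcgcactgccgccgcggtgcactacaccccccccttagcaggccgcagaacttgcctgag
Fh1: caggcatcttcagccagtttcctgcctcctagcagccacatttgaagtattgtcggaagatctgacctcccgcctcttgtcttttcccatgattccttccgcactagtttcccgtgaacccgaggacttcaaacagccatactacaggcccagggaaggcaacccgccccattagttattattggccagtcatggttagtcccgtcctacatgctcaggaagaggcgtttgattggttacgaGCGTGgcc

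The *Slc16a1* window holds an E-box and a pair of GCGTG matches, the *Pgk1* window holds a pair of ACGTG matches, and the *Pgam1* window holds 1 ACGTG and 2 GCGTG matches. The *Fh1* window holds 1 GCGTG match, and in the *Tpi1* window these letters do not occur. Promoters of 48 genes of the set were in the table, 68 promoters in all, each of 300 bases from 250 before to 50 after the start. ACGTG or GCGTG was present in 77.9% of them, beside 59.2% of the promoters of all genes above background and 43.8% of all 32851 promoters. CACGTG was present in 13.2%, beside 9.68% and 7.15%. Median GC content was 61% in the set, 60.3% for genes above background and 52.7% over all promoters. The 36 measured genes with ACGTG or GCGTG in any promoter had a median log2 ratio of -0.12 and the 8 without had one of -0.14. The 7 genes with CACGTG had a median of -0.082, and the 37 without had one of -0.12. A match is a description of letters and not a site of binding.

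The glucose transporter genes of the set had nearly level signals between the arrays. *Slc2a1*, which encodes the transporter GLUT1 that activated T cells place on their surface, measured 11.50 under isotype control and 11.45 after ND αCD4. *Slc2a3*, which encodes the high-affinity transporter GLUT3, was at 10.52 and 10.53. Their log2 ratios were -0.048 and 0.0062.

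The enzymes that split glucose into triose phosphates were below 0 in 9 of 10 measured genes, with a median log2 ratio of -0.13. The first step is served by 2 measured isoforms. *Hk1*, the hexokinase of most resting cells, had a signal of 13.71 and 13.69, and its other probe set had a log2 ratio of 0.024. *Hk2*, the hexokinase that growth signals induce, was at 7.73 under isotype control, barely above background, and below background after ND αCD4, which makes it at least 1.13-fold lower. The subunits of phosphofructokinase, the committing step, were all slightly lower. *Pfkp* went from 11.46 to 11.33, *Pfkl* from 10.29 to 10.22 and *Pfkm* from 9.85 to 9.79. The bifunctional enzymes that set the level of its activator fructose-2,6-bisphosphate were lower by about the same amount, with a log2 ratio of -0.12 for *Pfkfb3* (9.65 and 9.52) and -0.14 for *Pfkfb4* (8.68 and 8.54). Of the aldolases, which cut the hexose bisphosphate, *Aldoa* had a signal of 12.88 and 12.75, and *Aldoc*, the gene above 0 among these, was at 8.19 and 8.23. No gene of this stretch other than *Tpi1* reached 1.5-fold.

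Of the enzymes from triose phosphates to pyruvate, *Pkm* differed less than *Pgk1* and *Pgam1*. *Pkm* encodes the pyruvate kinase isoforms of most tissues and measured 11.90 under isotype control and 11.81 after ND αCD4, a log2 ratio of -0.086. Its other probe set had a log2 ratio of -0.18. All 3 measured genes of this stretch were below 0, with a median of -0.45, which is the value of *Pgam1*. *Gapdh* and *Eno1*, also of this stretch, were not analysed.

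The lactate genes were all below 0, with a median log2 ratio of -0.17, and the 2 carriers differed by different amounts. *Ldha*, the lactate dehydrogenase subunit that favours lactate formation, went from 13.56 to 13.42. *Ldhb*, the subunit of oxidative tissues, went from 9.09 to 8.88. Its other probe set had a log2 ratio of -0.12 but lay close to background in both arrays (7.79 and 7.67). *Slc16a3*, which encodes the exporter MCT4, had a log2 ratio of -0.11 (8.81 and 8.69), beside -0.62 for *Slc16a1*. The difference between the carriers was not tested, as 1 array per condition gives no spread.

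**Figure D2:**
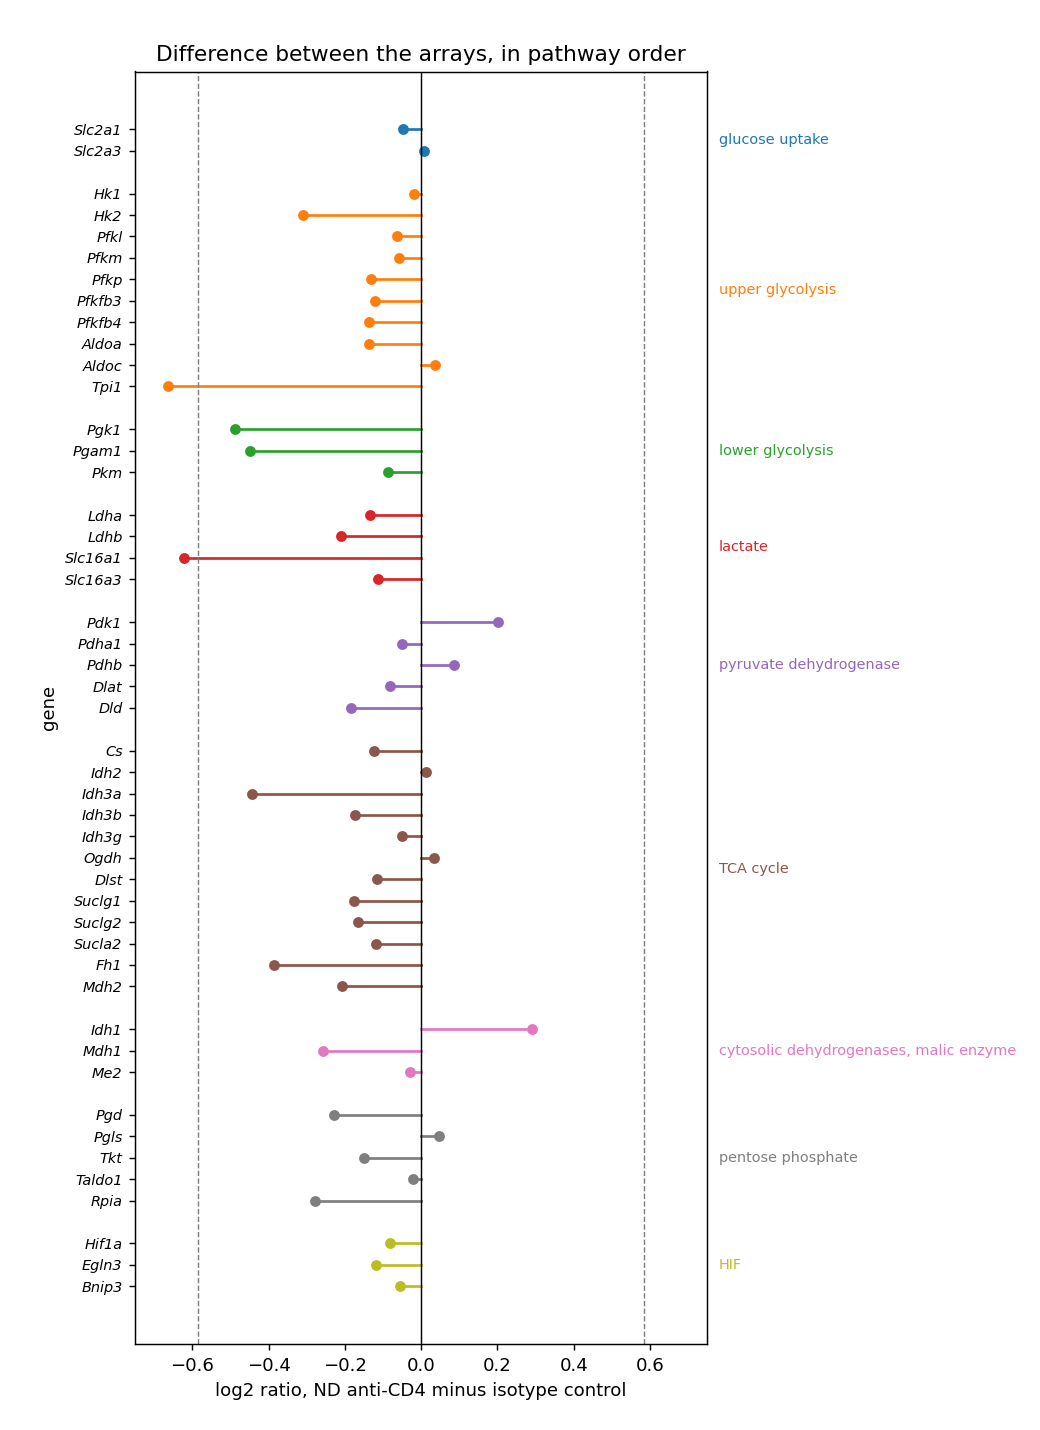
Log2 ratio (horizontal axis, ND αCD4 minus isotype control, 1 array each) of the 47 measured genes (vertical axis) in pathway order, coloured by role, with 0 as a solid line and 1.5-fold as dashed lines. Only Tpi1 at -0.67 and Slc16a1 at -0.62 pass the left dashed line, no gene passes the right one, and Idh1 at 0.29 is the highest.

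Pyruvate dehydrogenase and its kinase went both ways. *Pdk1*, which encodes a kinase that phosphorylates and inactivates the complex, measured 9.52 under isotype control and 9.72 after ND αCD4, a 1.15-fold higher level. The E1 subunits were close to 0, with *Pdha1* at 11.34 and 11.29 and *Pdhb* at 9.36 and 9.44. *Dlat*, the E2 subunit, went from 10.10 to 10.02. *Dld*, the E3 subunit that 2-oxoglutarate dehydrogenase also uses, went from 9.67 to 9.49. The median of these 5 genes was -0.050.

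The TCA cycle genes were below 0 in 10 of 12 cases, with a median log2 ratio of -0.14, and none reached 1.5-fold. The largest differences were in *Idh3a*, the catalytic subunit of the NAD-dependent isocitrate dehydrogenase, and in *Fh1*, which encodes fumarate hydratase. *Idh3a* went from 11.17 to 10.73, a 1.36-fold lower level, and *Fh1* went from 11.08 to 10.70, a 1.31-fold lower level. The other subunits of the same isocitrate dehydrogenase differed less, with *Idh3b* at 12.25 and 12.07 and *Idh3g* at 12.86 and 12.81. *Idh2*, the NADP-dependent enzyme of mitochondria, was at 11.41 and 11.43. *Mdh2*, the mitochondrial malate dehydrogenase, went from 12.99 to 12.78, and *Cs*, which encodes citrate synthase, from 12.37 to 12.24. The succinyl-CoA ligase subunits were lower by similar amounts, with log2 ratios of -0.18 for *Suclg1* (10.28 and 10.11), -0.17 for *Suclg2* (8.80 and 8.64) and -0.12 for *Sucla2* (10.15 and 10.03). Of the 2-oxoglutarate dehydrogenase complex, *Dlst* went from 10.88 to 10.76 while *Ogdh* was at 11.80 and 11.84.

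The cytosolic counterparts of these enzymes went in opposite directions. *Idh1*, which makes NADPH in the cytosol, measured 9.02 under isotype control and 9.31 after ND αCD4, a 1.22-fold higher level and the highest log2 ratio of the set (0.29). *Mdh1*, the cytosolic malate dehydrogenase, went from 11.79 to 11.54, a 1.20-fold lower level. *Me2*, the mitochondrial malic enzyme, was at 11.12 and 11.09.

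The pentose phosphate genes were below 0 in 4 of 5 cases, with a median log2 ratio of -0.15. *Rpia*, which makes ribose-5-phosphate, went from 9.97 to 9.69, a 1.21-fold lower level. *Pgd*, the second NADPH-forming enzyme, went from 11.24 to 11.01, a 1.17-fold lower level. *Tkt*, which encodes transketolase, went from 9.85 to 9.70. *Taldo1*, which encodes transaldolase, was at 10.11 and 10.09, and *Pgls*, the lactonase between the oxidative steps, at 9.63 and 9.68.

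The HIF genes of the set differed little. *Hif1a*, the oxygen-regulated subunit of HIF-1, measured 12.24 under isotype control and 12.16 after ND αCD4. *Egln3*, a prolyl hydroxylase that HIF induces, went from 9.42 to 9.30. *Bnip3*, a HIF-induced gene of mitophagy, was at 8.83 and 8.78, and its other probe set had a log2 ratio of 0.0041.

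**Figure D3:**
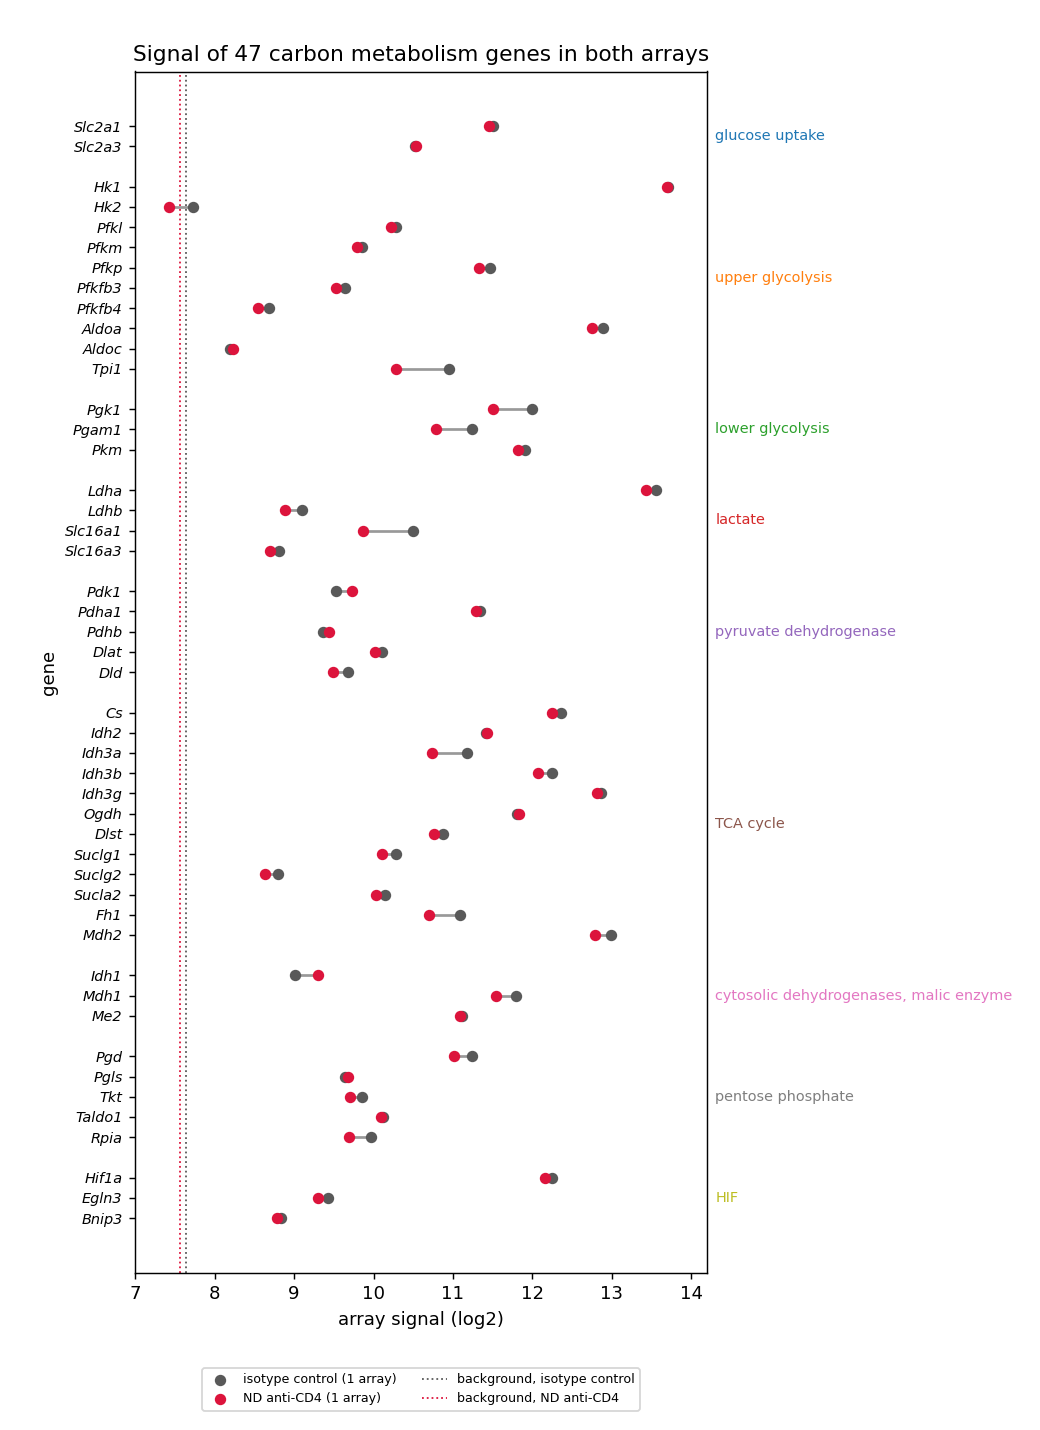
Array signal (log2, horizontal axis) of the 47 measured genes (vertical axis) under isotype control (gray points) and ND αCD4 (red points). Each gene has 1 point per array, joined by a gray bar, and dotted lines stand at the background of each array. The longest lines belong to Tpi1, Slc16a1, Pgk1, Pgam1 and Idh3a, and Hk2 is the gene whose red point lies below background.

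Genes of the same pathways outside the set had medians closer to 0. Their lists were not matched to the set by signal level, and some of their genes lay just above background. Of 17 other glycolysis genes above background, 12 were below 0, with a median log2 ratio of -0.036. *Eno3*, an enolase isoform known from muscle, was the single one past 1.5-fold, at 10.59 under isotype control and 9.93 after ND αCD4 (1.58-fold lower). The next in size were *Slc2a6* at -0.19 and *Bpgm* at -0.15. Of 11 other genes of lactate and pyruvate entry, 6 were below 0, with a median of -0.024. Among the pyruvate dehydrogenase kinases, *Pdk3* went from 10.36 to 10.12 while *Pdk2* went from 10.04 to 10.13. Of 18 other genes of the TCA cycle and its supply, 16 were below 0, with a median of -0.092. All 4 succinate dehydrogenase subunits were among them, with *Sdhd* the lowest at 10.94 and 10.63. Of 8 other pentose phosphate genes above background, 5 were below 0, with a median of -0.079. *H6pd*, the glucose-6-phosphate dehydrogenase of the endoplasmic reticulum, went from 10.11 to 10.36, whereas *Dera* went from 11.51 to 11.23.

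HIF regulators and targets outside the set were more often above 0 than below it. Of 23 genes above background, 16 were above 0, with a median log2 ratio of 0.048. Over all 13222 genes above background, 6170 were above 0. The list mixes regulators of HIF with its targets, so this count does not measure HIF activity. *Ddit4*, a HIF-induced and stress-induced inhibitor of mTORC1, was the single one past 1.5-fold, at 11.77 under isotype control and 11.06 after ND αCD4 (1.63-fold lower). *Adm* had the highest log2 ratio of the list (0.32) but exceeded background only after ND αCD4 (7.35 and 7.67). *Epas1*, which encodes HIF-2α, went from 8.35 to 8.62. Of the glycolysis, lactate and glucose uptake genes of the set, 17 of 19 were below 0, with a median of -0.13. A part of HIF in these signals was not tested.

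The regulators of metabolism and activation stood on both sides of 0, with 8 of 18 below 0 and a median log2 ratio of 0.0315. *Myc*, which drives metabolic genes after activation, measured 11.99 under isotype control and 11.68 after ND αCD4. *Txnip*, an inhibitor of glucose uptake, went from 13.05 to 13.26. *Mtor* and *Rheb*, also of this list, had log2 ratios of 0.099 and 0.10. Past 1.5-fold were *Irf4* (10.83 and 9.71), the amino acid transporter gene *Slc7a5* (11.64 and 10.96) and the transferrin receptor gene *Tfrc* (10.10 and 9.47), all lower.

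**Figure D4:**
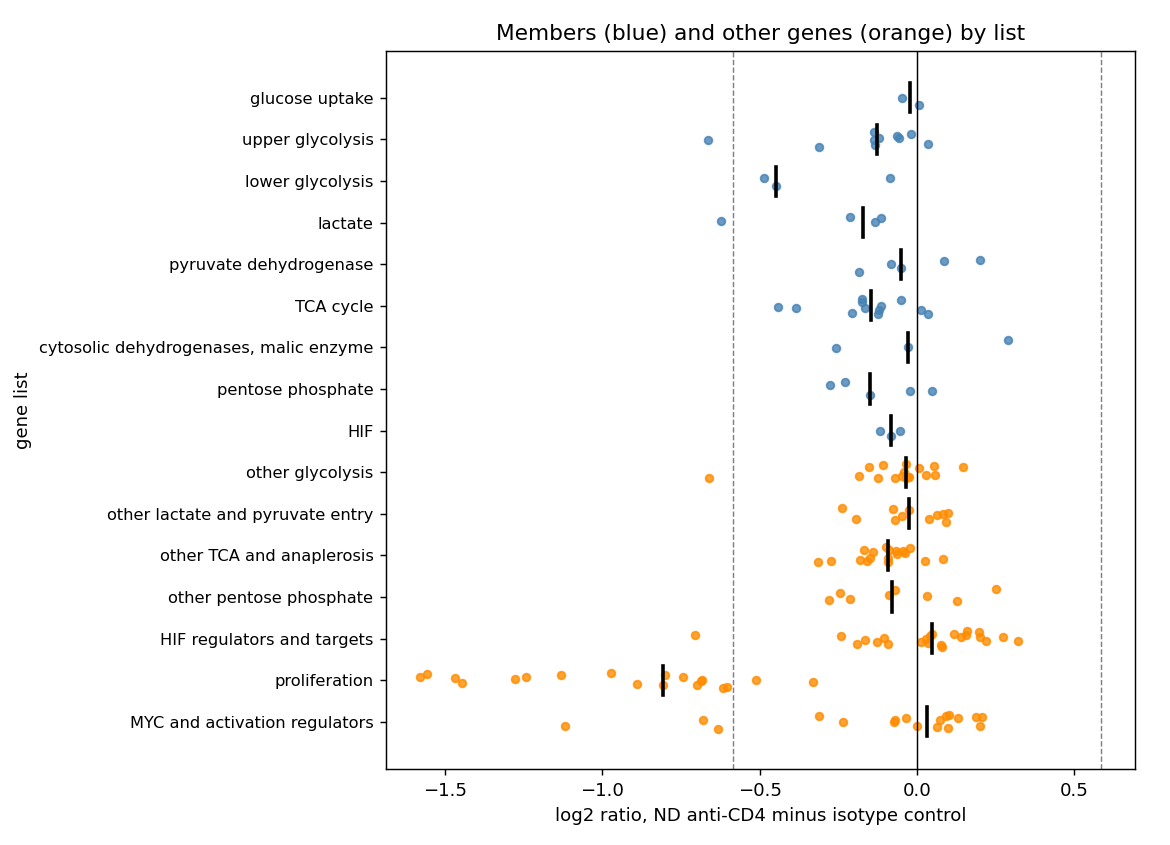
Log2 ratio (horizontal axis, ND αCD4 minus isotype control) of each gene above background by list (vertical axis), 1 point per gene, for the 9 roles of the set (blue) and 7 lists of other genes (orange), with list medians as black bars, 0 as a solid line and 1.5-fold as dashed lines. The roles of the set have medians from -0.45 to -0.021 and the proliferation list one of -0.81. Height within a list carries no meaning.

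Genes of other cell states and cell types differed between the same arrays. Of 19 proliferation genes above background, 17 passed 1.5-fold, all lower, with a median log2 ratio of -0.81. That count was 16 with values floored at background or with averaged probe sets. It was 15 over genes above background in both arrays and 7 at a 2-fold rule. *Birc5*, an inhibitor of apoptosis made in mitosis, lay below background after ND αCD4 (8.12 and 7.51) and was at least 1.47-fold lower. The part of cycling cells in the lower glycolytic signals was not tested. The CD8 T cell markers *Cd8a* (9.67 and 10.39) and *Cd8b1* (11.38 and 11.83) were higher after ND αCD4, while the other 3 of that list were at 0.13 (*Crtam*), -0.13 (*Gzmk*) and -0.31 (*Eomes*). The summed linear signal of the 5 CD8 markers was 9315 in the isotype control array and 10091 after ND αCD4. This sum includes *Eomes* (11.72 and 11.41) and *Gzmk* (10.79 and 10.66), which were lower, and does not measure the share of CD8 T cells. Of 6 natural killer markers, *Gzma* (8.28 and 8.71) and, only after ND αCD4, *Klrd1* (7.34 and 8.19) exceeded background, and *Ncr1* did not in either array. Of the 6 measured B cell markers, *Cd79a* exceeded background after ND αCD4 alone (7.35 and 7.64), which gives no fold against background. The others were above background in both arrays with log2 ratios from 0.0061 (*Blk*) to 0.14 (*Ms4a1*), and the summed signal of all 6 was 2466 and 2645. The part of these cells in the results was not tested. Of 8 T cell markers, none reached 1.5-fold, with a median of 0.040.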

How the data were processed

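RNA of sorted PLN CD3+CD4+ T cells was measured on 1 array per condition. The authors deposited log2 signals for each probe set. Affymetrix Expression Console is named in the submitters' processing notes. Its version and settings were not given in the sources used here. Probe set identifiers are those of an older mouse gene ST array than the paper's methods state. A log2 scale was inferred from the values, which run from 2.52 to 14.7 with medians of 8.15 and 8.15. Scaling between arrays before deposit can hide a shift shared by all genes.

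Of 35557 probe sets, 21789 had 1 symbol in the platform annotation, 1621 several and 12147 none, and the latter kinds were left out. The probe set with the highest mean represented each gene. No test was run. Genes were counted as higher or lower from 1.5-fold. A gene below background in 1 array has a bound against that background ("at least"). The genes, lists and rule for named genes (all measured members, list genes past 1.5-fold or at most the 3 largest, and at most 2 markers per list) were chosen with earlier results of these data known. Further genes (*Pdk2*, *Myc*, *Txnip*, *Mtor*, *Rheb*, *Got2*, *Slc25a11*, *Birc5* and markers beyond that number) were chosen after their values were seen. Calls were tested on simulated differences larger than any in the set, and scalings on a simulated shift shared by all probe sets. Neither covers calls near 1.5-fold. Alternatives were other scalings, flooring, probe set means, filters and a 2-fold rule. Promoters are from RefSeq. The tools were matplotlib 3.10.9, statsmodels 0.14.6, pandas 2.3.3, numpy 2.4.6 and Python 3.11.15.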

Additional observations from a re-analysis of the deposited data

How the results depend on the processing

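At a 2-fold rule, 0 of the 47 genes were lower, and so 0 of the upper glycolysis and 0 of the lactate genes, while 25 of all genes were lower and 2 higher, as a stricter rule must give fewer genes. Under centring on the median, lowess correction, quantile normalization, detection in both arrays, averaged probe sets, no filter and flooring at background, *Tpi1* and *Slc16a1* were the genes of the set past 1.5-fold, and the medians of the gene groups of the set, of the pathway lists and of all genes moved by less than 0.0929. Medians of the cell type marker lists were not recomputed. The value 0.0929 is the SD among log2 ratios of probe sets of 1 gene (over 550 genes with exactly 2). Some of these pairs may share probes, which would lower it, and it covers no difference between mice. Genes of the set below 0 numbered 37 under quantile normalization and 38 or 39 under the others. At the 2-fold rule, 7 proliferation genes, 1 regulator of metabolism and activation, and 0 of the other glycolysis and HIF list genes were lower. *Hk2* moved to -0.17 when floored at background, since its ND αCD4 signal lies below it. The alternative for linear values was not run because the values are log2. No paired analysis was possible because each group has 1 array, and leaving out an array would leave no comparison.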

Other observations

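The malate-aspartate shuttle, which carries reducing equivalents of glycolysis into mitochondria, had a lower signal after ND αCD4 in all 5 of its genes that were in the lists, a grouping made after the values were seen. *Got1*, the cytosolic aspartate aminotransferase, went from 11.45 under isotype control to 11.18 after ND αCD4, and *Got2*, the mitochondrial one, from 12.95 to 12.78. *Slc25a11*, the carrier of 2-oxoglutarate and malate, was at 11.93 and 11.85. Together with *Mdh1* and *Mdh2*, their log2 ratios ran from -0.27 to -0.090. None reached 1.5-fold, and with 1 array per condition this has no replicate check.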
